A study of Rattus norvegicus with 9 samples.

Results

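The tags labelled piRNA are the distinct small RNA sequences to which the authors' files gave a rat piRNA name, and they were taken by that label alone. Over 9 libraries there were 2662 such sequences under 202 names, with 6247984 reads. The files held 485728 tag sequences, 2472 names and 67939794 assigned reads in all, of every RNA class.

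The RNA came from exosomes, membrane vesicles secreted by cells, of primary peritoneal macrophages taken from untreated rats by lavage. There were 3 groups of 3 libraries. Control cultures received DMSO at 1 µl/ml, or 0.1% by volume, for 24 h. LPS cultures received lipopolysaccharide, a bacterial cell wall component that activates macrophages, at 100 ng/ml for 6 h. In LPS+AS-IV, the plant saponin astragaloside IV was given at 150 µM for 24 h ahead of LPS. Both agents were dissolved in DMSO per the labels, which give its final percentage and time for Control only. The labels do not say whether the libraries of a group are from different animals or cultures. The p-values here therefore reflect the spread between these samples only, which may be technical.

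PIWI-interacting RNAs are small RNAs that guide PIWI proteins to silence transposons, and they are known above all from the germline. They are somewhat longer than miRNAs, the primary ones tend to begin with U, and pairs made by reciprocal cleavage overlap by their first 10 bases on opposite strands, with A as the 10th base of one partner. Transfer RNAs, the adaptors of translation, are also cut in the anticodon loop under stress, and their 5′ fragments are of much the same length and are abundant in extracellular vesicles. Databases of piRNA names were built largely from small RNA sequencing, and some entries are known to hold letters of a tRNA.

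The most read sequences of 7 names are shown here because their letters bear on that question. Capitals mark the stretch that fits GNNNAGTNG, letters found near the start of many tRNA genes, where N is any base. Only the sequenced strand was searched. The parent tRNA is named from general knowledge of tRNA genes after the letters were seen, since no tRNA reference was used here.

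rno_piR_005901, tRNA-Val: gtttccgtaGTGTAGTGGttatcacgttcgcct

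rno_piR_005900, tRNA-Val: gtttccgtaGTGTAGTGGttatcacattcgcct

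rno_piR_005567, tRNA-Gly: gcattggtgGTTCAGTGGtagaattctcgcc

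rno_piR_005633, tRNA-Gly: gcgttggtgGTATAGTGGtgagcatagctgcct

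rno_piR_022904, tRNA-Gly: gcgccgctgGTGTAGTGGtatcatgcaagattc

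rno_piR_001414, tRNA-Asp: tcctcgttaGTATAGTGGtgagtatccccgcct

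rno_piR_005598, tRNA-Lys: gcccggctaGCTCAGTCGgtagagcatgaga

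In these 7 sequences the stretch began at base 10. In the most read sequence of rno_piR_008131, a further tRNA-Val name, it began at base 9, and that of rno_piR_005593, with tRNA-Arg letters, did not hold it. Of the piRNA-labelled reads, 64.5% to 99.3% per library held it, with a median of 97.4%. The same letters were in 19.7% to 55.9% of the reads labelled tRNA, in 1.01% to 2.38% of those labelled rRNA and in 0% to 0.428% of mature miRNA reads. They occurred in at least 50% of the reads of 24 of the 202 names. A match is a description of the letters only.

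rno_piR_001199 alone made up most of the label. It held 53.5%, 55.4% and 53.7% of piRNA-labelled reads in the Control libraries, 69.0%, 52.6% and 79.8% in the LPS libraries, and 83.3%, 64.7% and 69.1% in the LPS+AS-IV libraries. LPS 2 was the lowest of the 9 libraries and LPS+AS-IV 1 the highest, and LPS overlapped both other groups. Together with rno_piR_001198 and rno_piR_001200, it held 55.5% to 87.6%.

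rno_piR_005901, with the letters of tRNA-Val, came next in every library except LPS 2. It held 27.6%, 18.9% and 21.2% of piRNA-labelled reads in the Control libraries, 15%, 7.25% and 13.2% in the LPS libraries, and 7.64%, 18% and 19.4% in the LPS+AS-IV libraries. All 3 LPS libraries lay below all 3 Control libraries, while LPS+AS-IV overlapped both. The 17 names read here as tRNA held 64.5% to 99.6% of piRNA-labelled reads, and 5 names held 88.9% to 97.2%.

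Most names were rare. Of the 202, 17 had reads in all 9 libraries, 102 had reads in 1 library only, 85 had at least 100 reads in total and 22 had fewer than 10.

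**Figure D1:**
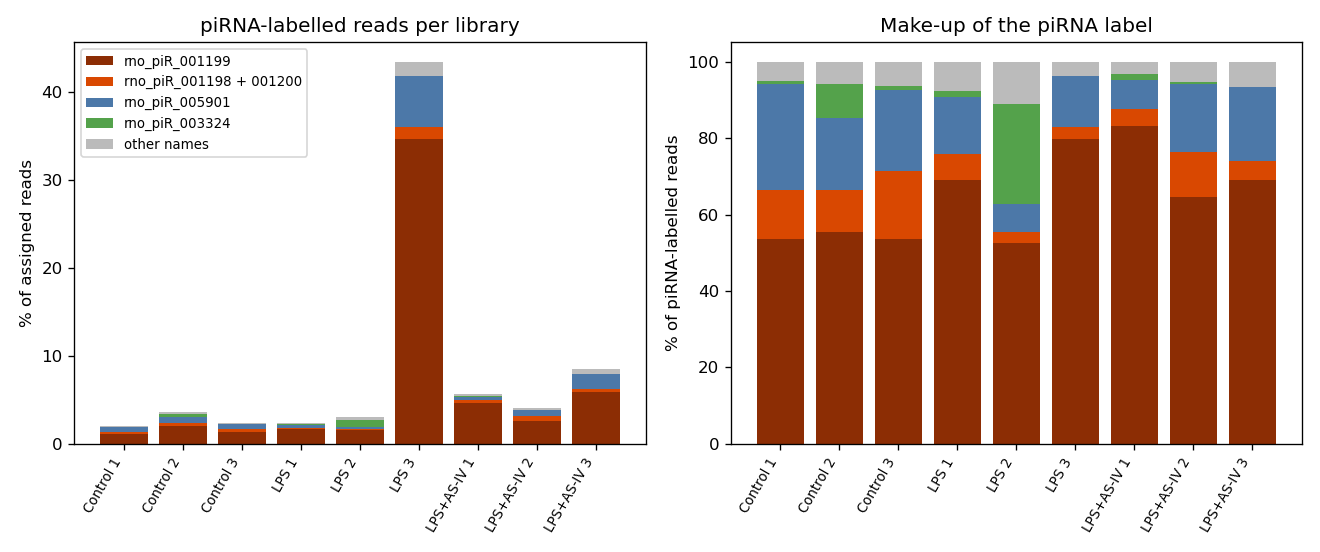
Stacked bars give, for each library, piRNA-labelled reads as a percentage of assigned reads (left) and the names within the label as a percentage of piRNA-labelled reads (right). LPS 3 reaches 43.5% of assigned reads, and rno_piR_001199 is the largest block in every library.

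Reads labelled piRNA were 2.06%, 3.60% and 2.44% of assigned reads in the Control libraries, 2.44%, 3.09% and 43.5% in the LPS libraries, and 5.65%, 4.10% and 8.50% in the LPS+AS-IV libraries. LPS 3 stood apart from the other 8 libraries, which lay at 8.50% or below. All LPS+AS-IV libraries were above all Control libraries, and LPS overlapped both. The libraries held 3484099 to 9527483 assigned reads and 107546 to 3887040 piRNA-labelled reads, and for LPS 2, the least sequenced, the 95% Wilson interval of the share was 3.07% to 3.10%. These intervals cover counting error only, since PCR copies are not independent molecules.

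The mean share was 2.70% ± 0.801 (SD, n = 3) for Control, 16.3% ± 23.5 for LPS and 6.09% ± 2.23 for LPS+AS-IV. In exosome RNA measured in bulk, fewer vesicles of a kind and less of an RNA per vesicle cannot be told apart. An exact two-sided permutation test of 3 libraries against 3 cannot give a p below 0.1. LPS exceeded Control by 13.6 percentage points (exact permutation p = 0.6, adjusted p = 0.8 over the 12 share tests). Without LPS 3 the difference was 0.0614 points. LPS+AS-IV exceeded Control by 3.39 points (exact permutation p = 0.1, adjusted p = 0.24). LPS+AS-IV lay 10.3 points under LPS (difference -10.3, exact permutation p = 1), and without LPS 3 it lay 3.32 points above. All 3 comparisons draw on the same 9 libraries, so they are not independent of each other.

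Reads labelled tRNA moved in the other direction in the library that stood apart. They were 12.9% of assigned reads in LPS 3 and 10.2% in LPS+AS-IV 3, against 29.6% to 62.9% in the other 7 libraries. The ratio of piRNA-labelled to tRNA-labelled reads was 3.37 in LPS 3, 0.837 in LPS+AS-IV 3 and 0.0328 to 0.110 in the others. The sum of both labels was 56.4% in LPS 3, within the 18.7% to 65.0% of the other libraries, and lowest in LPS+AS-IV 3. The part of library quality in these shares was not tested.

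The start of rno_piR_001199 was almost never labelled tRNA. Of 4664544 reads with the first 18 bases of its most read tag, 4664313 carried a piRNA name and 4 were labelled tRNA. In each library at least 99.99% of them carried a piRNA name, LPS 3 included. The tRNA-Asp start of rno_piR_001414 was labelled piRNA in 99.96% of 70094 reads, and the tRNA-Gly start of rno_piR_022904 in 100% of 12621.

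Other tRNA starts were divided between the labels. The tRNA-Val start of rno_piR_005901 had 910489 reads labelled piRNA and 116001 labelled tRNA, with 80.1% to 96.6% labelled piRNA per library. The tRNA-Gly start of rno_piR_005567 had 34543 reads labelled piRNA and 26950 labelled tRNA, with 33.7% to 83.9% per library. For the tRNA-Arg name rno_piR_005593, 37.7% of 5374 reads were labelled piRNA. A level counted under 1 label therefore gives only part of the reads of those fragments.

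Shared letters were also counted without naming a parent. A piRNA tag was matched where it shared 18 bases in a row with a tRNA-labelled or rRNA-labelled tag of at least 10 reads. By this rule 31.2%, 20.9% and 24.6% of piRNA-labelled reads matched in the Control libraries, 17.7%, 9.37% and 16.4% in the LPS libraries, and 10.2%, 21.8% and 24.6% in the LPS+AS-IV libraries. All LPS libraries lay below all Control libraries, with a difference of -11.0 percentage points (exact permutation p = 0.1, adjusted p = 0.24). LPS+AS-IV overlapped both groups.

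The rule missed rno_piR_001199, of whose reads 0.125% matched. Its most read sequence shared at most 17 bases in a row with any tRNA-labelled tag of that depth. With 16 bases 99.5% of its reads matched, and with 18 bases and any tRNA-labelled tag 99.9% did, since those few tags with its letters had under 10 reads. rno_piR_005901 matched in 99.9% of its reads by the first rule. Even with 16 bases, rno_piR_022904 matched tRNA-labelled tags in 0.0357% of its reads. For rno_piR_000194, named as initiator tRNA-Met, it was 0%. The tRNA parents given for these names rest on general knowledge alone. With 16 bases, 64.5% to 98.9% of all piRNA-labelled reads matched per library, lowest in LPS 2.

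Nearly all of these matches to tRNA or rRNA tags were to tRNA and on the same strand. Pooled over libraries, 17.6% of reads matched tRNA at 18 bases and 0.0115% matched rRNA. On the reverse strand 0.0167% matched tRNA. Counted by name, 19 of 202 had at least 50% of their reads matched to tRNA at 18 bases, 22 at 16 bases, and 5 had them matched to rRNA. Tags of other Rfam families, whose names the files do not give, were matched by 97.9% of pooled piRNA-labelled reads at 18 bases. They were also matched by 88.5% of mature miRNA reads, so such a match is not particular to the piRNA label. By name, 49 had at least 50% of their reads matched to these tags, rno_piR_001199 among them (99.9% of its reads). Of these names, 35 were under 50% for tRNA at 16 bases. At 18 bases, 140 of the 202 names were under 50% for tRNA, rRNA, miRNA and other Rfam tags alike.

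**Figure D2:**
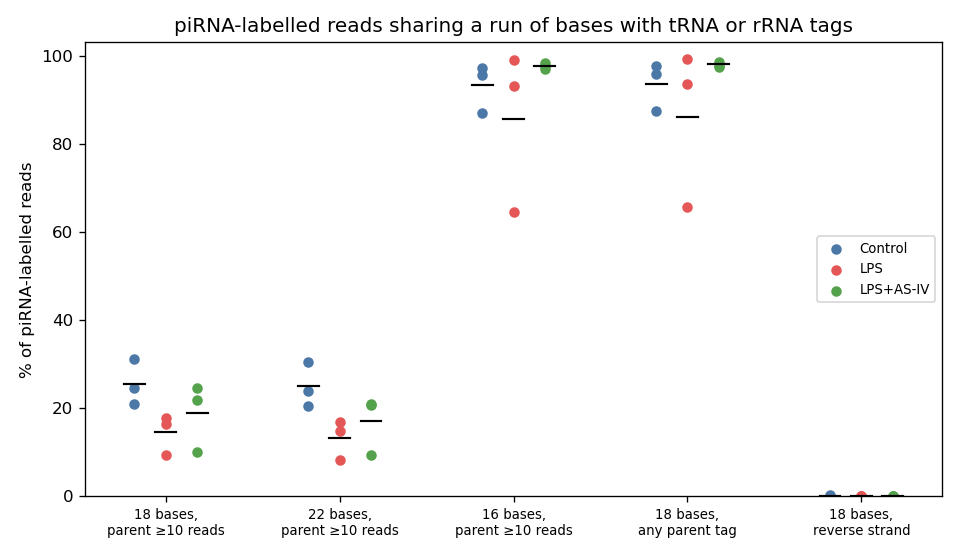
Points are libraries, coloured by group, and black lines are group means; the vertical axis is the percentage of piRNA-labelled reads that share a run of bases with a tRNA- or rRNA-labelled tag. The 5 rules differ in run length, in the reads asked of the parent tag and in strand, and the share goes from 9.37% to 31.2% under the first to 64.5% to 98.9% with 16 bases.

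Lengths did not centre on the 26 to 31 nt usual for piRNAs. Pooled over libraries, 39.6% of piRNA-labelled reads were 33 nt long, 29.6% were 35 nt and 1.32% were 34 nt. The most common length was 33 nt in 8 libraries and 35 nt in LPS+AS-IV 3. Reads of 32 to 36 nt were 62.8% to 90.9% of the label per library, beside 40.7% to 85.4% of the tRNA-labelled reads. They were 12.3% to 24.8% of rRNA-labelled reads and 0% of mature miRNA reads.

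Reads of 26 to 31 nt were 26.7%, 34% and 31.3% of the label in the Control libraries, 17.5%, 34.4% and 8.79% in the LPS libraries, and 16.9%, 25.1% and 10.6% in the LPS+AS-IV libraries. All LPS+AS-IV libraries lay below all Control libraries, and LPS overlapped both. LPS+AS-IV differed from Control by -13.1 points (exact permutation p = 0.1, adjusted p = 0.24) and LPS from Control by -10.4 points (exact permutation p = 0.4), which was -17.5 without LPS 2 and -4.73 without LPS 3. With score-0 tags alone the second difference turned to 3.49 points.

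**Figure D3:**
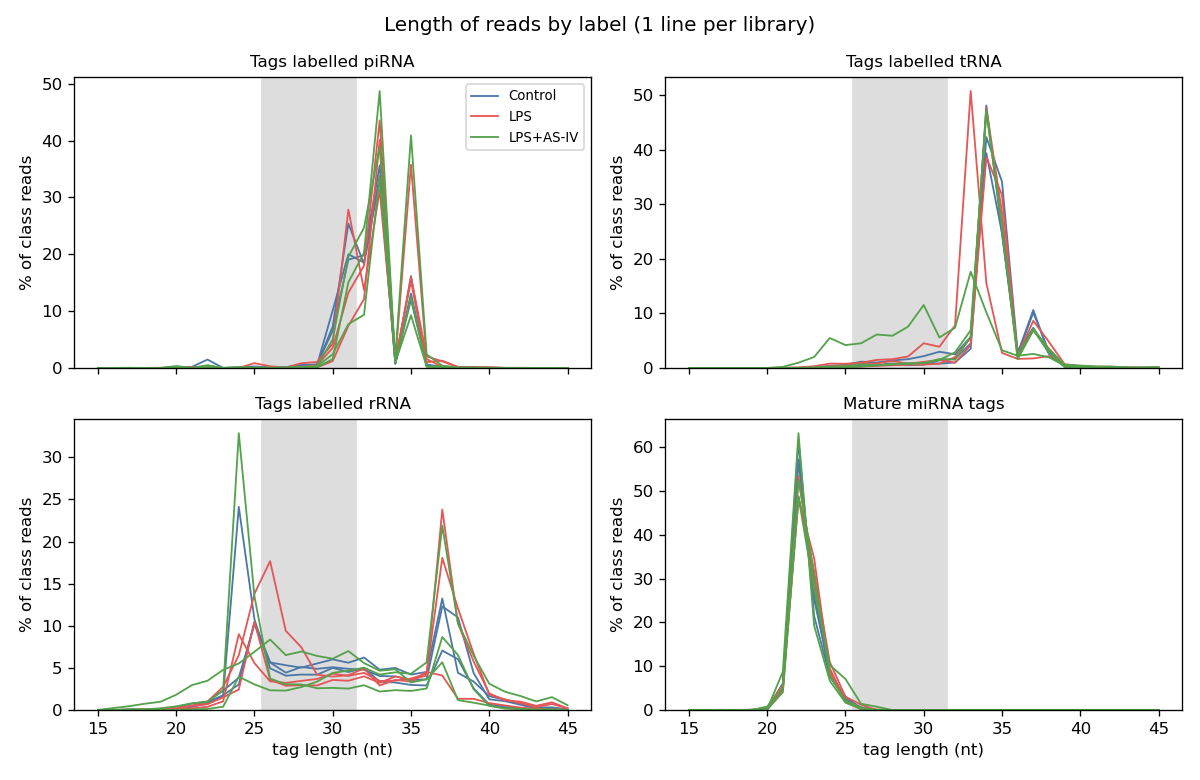
Each line is a library, coloured by group, and gives the percentage of a label's reads at each tag length in nt; the grey band marks 26 to 31 nt. Tags labelled piRNA peak at 33 and 35 nt with a gap at 34 nt, where most libraries' tRNA-labelled tags peak, while mature miRNA peaks at 22 nt.

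A T (U in the RNA) was the first base of most piRNA-labelled reads, and most of these reads had the name rno_piR_001199. Reads starting with T were 67.9%, 75.0% and 72.9% in the Control libraries, 79.1%, 79.6% and 84.3% in the LPS libraries, and 89.2%, 77.6% and 77.2% in the LPS+AS-IV libraries. Every library of both treated groups was above every Control library, by 9.08 points for LPS and 9.41 for LPS+AS-IV (exact permutation p = 0.1 for each, adjusted p = 0.24). With rno_piR_001199 left out, the differences turned to -1.42 and -5.72 points.

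Without rno_piR_001198, rno_piR_001199 and rno_piR_001200, 4.67% to 54.1% of the remaining reads started with T. LPS 2 was the highest and Control 2 came next at 25.8%, and these are the libraries richest in rno_piR_003324. Counted once per distinct tag, 46.9% to 63.6% started with T. For comparison, the medians over libraries by read were 55.3% for mature miRNA, 22.9% for rRNA and 2.36% for tRNA labels. By distinct tag they were 61.0%, 25.2% and 14.8%.

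By read, the other marks of piRNA pairs were scarce in most libraries. An A as base 10 was found in 0.261% to 23.0% of piRNA-labelled reads, below 3% in all libraries except Control 2 (8.48%) and LPS 2 (23.0%). The median was 1.2%, against 34.7% in mature miRNA. Tags whose first 10 bases were complementary to the first 10 of another piRNA-labelled tag numbered 0 to 4 per library, with at most 0.289% of the reads.

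To compare 3′ ends, exact forms of 1 tRNA-Val sequence, that of rno_piR_005901, were taken as a set. They share 1 first base by this choice and differ only in where they end. Other tags among the 324 distinct tags of that name were left out, and 5′ ends were not measured. The forms that held most reads are printed with the bases beyond the 30th in capitals.

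tRNA-Val 31 nt: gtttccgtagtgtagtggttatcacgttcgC

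tRNA-Val 32 nt: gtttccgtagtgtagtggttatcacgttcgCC

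tRNA-Val 33 nt: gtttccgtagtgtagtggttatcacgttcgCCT

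tRNA-Val 34 nt: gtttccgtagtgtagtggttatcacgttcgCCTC

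The forms of 31 to 33 nt were named rno_piR_005901 and the 34-nt form was labelled tRNA. The 33-nt form held 37.9%, 33.2% and 36.3% of the set in the Control libraries, 55.3%, 52.7% and 60.7% in the LPS libraries, and 61.6%, 48.0% and 60.1% in the LPS+AS-IV libraries. The 31-nt form held 27.9%, 34.6% and 30.8% in the Control libraries, 13.9%, 14.7% and 8.15% in the LPS libraries, and 10.1%, 15.1% and 8.33% in the LPS+AS-IV libraries. For both lengths neither treated group overlapped Control, and the treated groups overlapped each other.

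The 33-nt share was higher by 20.4 points in LPS and by 20.7 points in LPS+AS-IV than in Control (exact permutation p = 0.1 and adjusted p = 0.24 for both, over 12 tests of 3′ ends in all). LPS+AS-IV and LPS differed by 0.292 points (exact permutation p = 0.9). All 6 treated libraries had a larger 33-nt share than any Control library, a difference larger than the spread within groups but at the smallest p that 3 against 3 allows. The 3′ end measures were chosen after their values were seen.

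**Figure D4:**
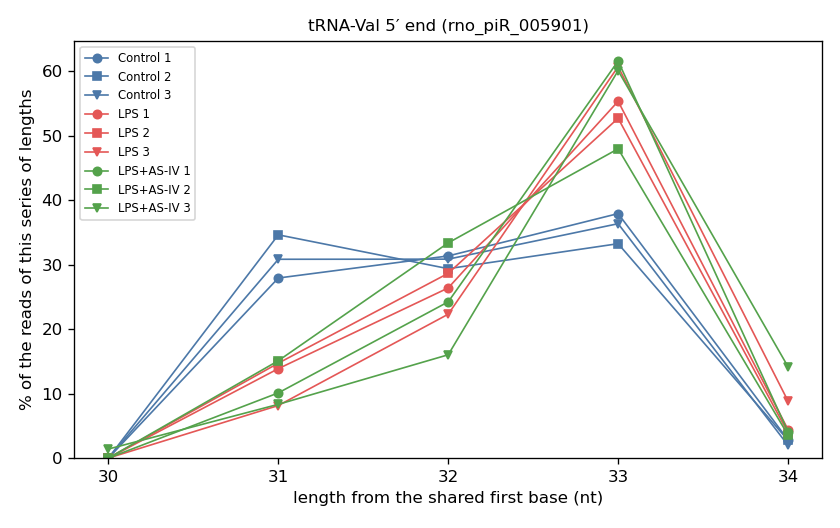
For each library, lines give the percentage of reads at each length among the 30- to 34-nt forms of the printed tRNA-Val sequence. Each form begins at its first base and is identical to it as far as the form goes. Colour marks the group and marker shape the library number. At 33 nt the 3 Control libraries lie at 33.2% to 37.9% and the 6 treated libraries at 48.0% or more.

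Read levels by name were compared in 1 edgeR fit over all 1257 names that passed the filter on low counts, of every RNA class. Of the 202 piRNA names, 65 passed. No piRNA name passed the test in any of the 3 comparisons at an edgeR adjusted p under 0.05, where 0.0796% of all names were called higher in LPS against Control and 0% lower. At an unadjusted edgeR p under 0.05, 12 piRNA names were higher and 1 lower in LPS than in Control (1.91% and 1.35% of all names). Without LPS 3 these were 5 and 2 of 84 piRNA names tested. They were 13 and 1 of 86 without LPS 1, and 16 and 5 of 75 without LPS 2. The share of all names was not counted in these fits. DESeq2 called 4 of 48 piRNA names in that comparison, beside 1.06% of all names, and 2 of the 4 had 0 reads in all libraries of 1 of the groups.

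In LPS+AS-IV against LPS, 0 were called by edgeR (0.0796% of all names higher and 0% lower), with 1 higher and 12 lower at an unadjusted p under 0.05 (2.23% and 3.26% of all), and 7 of 50 called by DESeq2 (2.36% of all). In LPS+AS-IV against Control, 0 were called by edgeR (0.0796% of all names in each direction), with 7 higher and 9 lower at an unadjusted p under 0.05 (3.58% and 3.02% of all), and 6 of 53 called by DESeq2 (1.66% of all). All of the DESeq2 calls in these 2 comparisons were names with 0 reads in all libraries of 1 of the groups compared. So were all 9 names lower against Control at an unadjusted edgeR p under 0.05, and most of the 12 lower against LPS. Some names higher against Control, and the 1 higher against LPS, had 0 reads in the other group. In LPS against Control the 1 lower name and some higher names also had a group at 0. Such names passed the filter through other groups only. The smallest edgeR adjusted p of a piRNA name was 0.276 in LPS against Control. It was 0.271 in LPS+AS-IV against LPS and 0.322 in LPS+AS-IV against Control. Reads per name varied between samples of a group with a square root of common dispersion of 1.53, so a count of 0 does not show that levels were alike.

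The median log2 fold change over the 65 names was 1.04 in LPS against Control, beside 0.15 over all names. It was -1.79 in LPS+AS-IV against LPS, beside 0.11, and -0.37 in LPS+AS-IV against Control, beside 0.22. Several of the 65 names had no reads in any LPS+AS-IV library. LPS+AS-IV 3 had reads of 21 piRNA names, against 41 to 105 in the other libraries. How far these medians rest on single libraries, such as LPS 3, was not tested.

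rno_piR_001199 was at 15675, 18893 and 12237 CPM (read counts scaled to a common library size by edgeR's TMM) in the Control libraries, 31569, 8249 and 404026 in the LPS libraries, and 68791, 34210 and 22566 in the LPS+AS-IV libraries. On this scale LPS 2 was the lowest library and LPS 3 the highest. The TMM factor was 1.97 for LPS 2 and 2.61 for LPS+AS-IV 3, against 0.533 to 1.07 in the others, and when scaled by library totals alone LPS 2 was at 16279 CPM, within the 11027 to 19969 of Control. All LPS+AS-IV libraries were above all Control libraries on both scales. In LPS against Control the log2 fold change reached 3.25 (SE 1.11, edgeR adjusted p = 0.692), and in LPS+AS-IV against Control it reached 1.42 (SE 1.03, edgeR adjusted p = 0.982). Without LPS 3 the first was 0.35, and without LPS 2 it was 3.79 with an edgeR adjusted p of 0.0076. Against LPS, LPS+AS-IV had a log2 fold change of -1.82 (SE 1.05), which turned to 1.07 without LPS 3.

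rno_piR_005901 was at 8085, 6443 and 4829 CPM in the Control libraries, 6848, 1137 and 66967 in the LPS libraries, and 6312, 9511 and 6334 in the LPS+AS-IV libraries. Apart from the lowest and highest values, both of them LPS libraries, the 7 others lay between 4829 and 9511. By library totals the same libraries were lowest and highest, at 2244 and 57616, and the 7 others lay between 3647 and 16558. The log2 fold change of LPS against Control was 1.95 (SE 0.97, edgeR adjusted p = 1.00) and turned to -0.69 without LPS 3.

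Among tRNA names, rno_piR_001414, rno_piR_005633 and rno_piR_022904 had the smallest p in LPS against Control. rno_piR_001414, with tRNA-Asp letters, was at 96.3, 63.1 and 54.4 CPM in the Control libraries, 249, 71.3 and 5247 in the LPS libraries, and 254, 260 and 825 in the LPS+AS-IV libraries. All LPS+AS-IV libraries were above all Control libraries, and LPS 2 lay within Control on this scale. By library totals LPS 2 was at 141 CPM and LPS 1 at 132, both above the 58.2 to 67.7 of Control, so that neither treated group overlapped Control. In LPS against Control the log2 fold change was 4.70 with an SE of 1.16 (edgeR adjusted p = 0.276), and in LPS+AS-IV against Control it was 2.65 with an SE of 1.06 (edgeR adjusted p = 0.744). It was called higher in LPS without LPS 1 and without LPS 2 (edgeR adjusted p = 0.0013 and 0.00049).

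rno_piR_005633, with tRNA-Gly letters, was at 60.3, 41.9 and 13.0 CPM in the Control libraries, 83.2, 15.6 and 3286 in the LPS libraries, and 239, 112 and 278 in the LPS+AS-IV libraries. Its log2 fold change in LPS against Control was 4.88 (SE 1.29, edgeR adjusted p = 0.282), and it was called without LPS 1 and without LPS 2 (edgeR adjusted p = 0.0013 and 0.00059). rno_piR_022904, a further tRNA-Gly name, was at 41.0, 20.7 and 33.4 CPM in the Control libraries, 166, 10.9 and 1195 in the LPS libraries, and 28.4, 108 and 135 in the LPS+AS-IV libraries, and was called without LPS 2 (edgeR adjusted p = 0.011). In each of these 3 names LPS 3 was the highest library on both scales. LPS 2 lay within or below Control in each by TMM, and by library totals in rno_piR_005633 (30.8) and rno_piR_022904 (21.6) but not in rno_piR_001414.

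LPS 3 was also the highest library for the tRNA names that follow. rno_piR_005567 was at 276, 174 and 179 CPM in the Control libraries, 390, 60.2 and 2480 in the LPS libraries, and 923, 734 and 218 in the LPS+AS-IV libraries. rno_piR_005900, the tRNA-Val name that differs from rno_piR_005901 within the printed letters, was at 126 to 146 CPM in Control and 22.5 to 1917 in LPS. The initiator tRNA-Met name rno_piR_000194 was at 1.74 CPM or less in Control, at 0.808, 0.438 and 238 in the LPS libraries, of which the first and second lay within Control, and at 60.9, 31.6 and 0.287 in the LPS+AS-IV libraries. It was called higher in LPS without LPS 1 and without LPS 2 (edgeR adjusted p = 0.047 and 0.033). rno_piR_005598, with tRNA-Lys letters, had 26.1 to 1126 CPM in LPS and none in LPS+AS-IV 3.

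**Figure D5:**
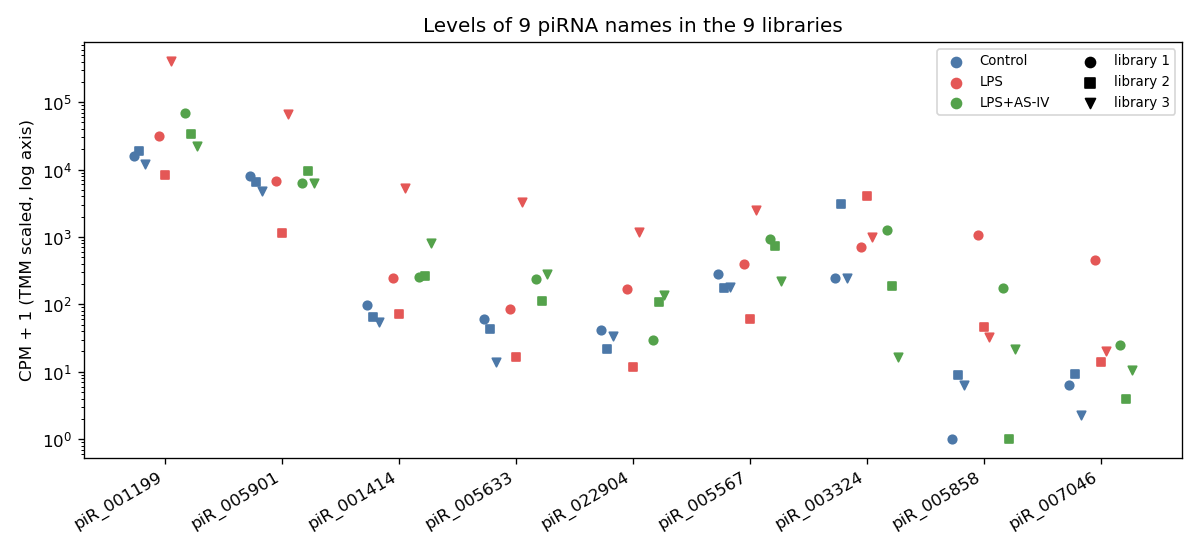
Points give CPM + 1 on a log axis for 9 piRNA names in each library, coloured by group and with a marker for the library number; a point at 1 is 0 CPM. LPS 3 is the highest point for the 6 tRNA names on the left, and LPS 1 for rno_piR_005858 and rno_piR_007046.

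The names described next, which were not named as tRNA here, were highest in other libraries than LPS 3. Some had a partner on the opposite strand. The most read sequences of 2 such pairs are shown, with the complementary bases in capitals.

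rno_piR_003324: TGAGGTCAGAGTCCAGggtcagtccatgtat

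rno_piR_000772: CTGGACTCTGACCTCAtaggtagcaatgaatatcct

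rno_piR_007046: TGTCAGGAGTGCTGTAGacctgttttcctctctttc

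rno_piR_010785: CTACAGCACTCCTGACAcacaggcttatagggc

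In the first pair the first 16 bases of each were complementary, and in the second the first 17. rno_piR_005858 shares letters with rno_piR_007046 and was complementary to rno_piR_010785 over 14 bases. In LPS 2, 52 of 535 piRNA-labelled tags, with 16.7% of the reads, had a piRNA-labelled partner that overlapped by exactly 16 first bases, against 2 tags at 10 bases. In Control 2 the most tags were found at 18 bases, 22 of 646 with 3.82% of the reads. Control 3 and LPS+AS-IV 3 had none from 10 to 20 bases.

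rno_piR_003324 had 241, 3041 and 247 CPM in the Control libraries, 697, 4097 and 1000 in the LPS libraries, and 1271, 189 and 15.6 in the LPS+AS-IV libraries. LPS 2 and Control 2 were the highest, and the groups overlapped. It was 26.1% of piRNA-labelled reads in LPS 2 and 8.92% in Control 2. rno_piR_000772, its partner, was at 195 CPM in LPS 2, 25.4 in LPS 1 and 22.1 in Control 2, with 0 reads in all 3 LPS+AS-IV libraries. In LPS+AS-IV against LPS its edgeR adjusted p was 0.271. It was called without LPS 1, without LPS 3 and without LPS+AS-IV 1, with edgeR adjusted p of 0.00364, 0.00102 and 0.0258. LPS 3 also had 0 reads of it. This name passed the filter on low counts through the other groups only and is described for its small p, so the calls are not separate support.

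rno_piR_005858 and rno_piR_007046 were highest in LPS 1. rno_piR_005858 was at 0, 8.0 and 5.46 CPM in the Control libraries, 1070, 45.4 and 31.9 in the LPS libraries, and 174, 0 and 20.8 in the LPS+AS-IV libraries. All LPS libraries were above all Control libraries, with a log2 fold change of 6.4 (SE 1.85, edgeR adjusted p = 0.416). It was called without Control 2, without LPS 2 and without LPS 3 (edgeR adjusted p = 0.025, 0.0046 and 0.0036). rno_piR_007046 was at 5.32, 8.17 and 1.25 CPM in the Control libraries, 447, 13.1 and 19.3 in the LPS libraries, and 24.3, 2.98 and 9.58 in the LPS+AS-IV libraries, also with no overlap of LPS and Control (log2 fold change 5.02, SE 1.44, edgeR adjusted p = 0.416). It was called without LPS 2 (edgeR adjusted p = 0.033).

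rno_piR_006383, rno_piR_008075 and rno_piR_011958 had 0 reads in all LPS+AS-IV libraries. Their highest levels elsewhere were 66.8, 59.3 and 27.7 CPM, and each also had a Control library at 0. Among the Control libraries rno_piR_008075 had reads in Control 2 only, and it had 1 read in LPS 3. With all libraries the smallest edgeR adjusted p of the 3 names was 0.308. In LPS+AS-IV against Control, rno_piR_006383 was called without Control 3 (edgeR adjusted p = 0.0283), as was rno_piR_000772 at the same adjusted p. Control 3, the library left out there, had 0 reads of both names. DESeq2 called all 3 lower in LPS+AS-IV against each of the other groups. These 3 names passed the filter on low counts through the other groups only and are described for their small p. Such calls are therefore not separate support for a difference. None of them was named as tRNA here, but 90.1% of the reads of rno_piR_006383 held GNNNAGTNG. Of the reads of rno_piR_008075, 85.4% shared 18 bases in a row with a tRNA-labelled tag of any depth.

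rno_piR_023447 holds the letters of miR-652-3p, a miRNA, and its tags changed label from library to library. Of 43026 reads with its first 18 bases, 32.6% carried the piRNA name, from 0.0916% to 99.9% per library. Its level of 3.94 to 400 CPM is therefore that of the label and not of the sequence. The same holds for rno_piR_001198 and rno_piR_001200, since some of their tags had either name depending on the library. Some tags were likewise named rno_piR_005900 in some libraries and rno_piR_005901 in others, the most read of them with 2352 reads in all. The level of rno_piR_005900, with 23275 reads in all, is therefore also that of the label. In all, 66 piRNA tag sequences carried more than 1 assignment, of which 31 had piRNA names only.

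Among mature miRNAs, a list of 6 myeloid markers held 0.718% to 7.19% of mature reads. Of them 2 were found in all 9 libraries, and miR-142-3p, a blood cell marker, was at 0 in each. A germ cell list of 3 held 0% to 0.102%, with miR-34c-5p at 0 in each. Erythroid markers (3) held 2.72% to 4.79%, and of them only miR-451-5p was found in all 9 libraries. The erythroid miR-486 had reads in 7 libraries and miR-144-3p in 2. Lists of 1 marker held 1.42% to 4.06% for lymphocytes, 0.159% to 1.38% for platelets and endothelium and 0.143% to 0.961% for liver and serum. The part of all these markers in the piRNA results was not tested. Mature reads were 0.162% to 8.16% of assigned reads, so these lists rest on few reads in some libraries.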

How the data were processed

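Small RNA of macrophage exosomes was sequenced on the BGISEQ-500, per the labels' protocols. The files deposited by the authors hold, per the file headers, the read count of each distinct tag of 15 to 45 nt, 1 assignment and a score, which for piRNA tags was 0 or 1. Per the submitters' processing notes, Bowtie2 and the rat build Rnor_6.0 were used, in roles that are not stated. The source of the piRNA names and the trimming were not given in the sources used here. Tags were grouped by the ending of the assignment or by Rfam family, of which those for tRNA and rRNA were assigned by hand. Members and lists were chosen with earlier results of these data known. The text names the 12 names with the highest mean share, the first 3 of each library and, as none passed, the 5 with the smallest p per comparison. Shares were compared with exact permutation tests and Benjamini-Hochberg adjustment. Counts per name were tested with edgeR 4.0.16 (quasi-likelihood, TMM, filterByExpr, Benjamini-Hochberg over 1257 names, R 4.3.3), after tests on simulated data, and with DESeq2 1.42.0 as an alternative. Shares, lengths and matches used Python 3.11.15. No 2 libraries of a group were copies (chi-square over degrees of freedom of 413 or more). Alternatives left out each library, changed scaling, filters, tag weights or matching rules. Some tag sequences, with their 3′ ends, are not reported here.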

Additional observations from a re-analysis of the deposited data

How the results depend on the processing

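Of 84 alternative values of the shares that kept all libraries, 73 kept their direction and 11 turned, and no test of 3 against 3 can pass an exact p of 0.05. With rno_piR_001199 left out, the share that starts with T changed its difference to -1.42, -4.30 and -5.72 points (LPS against Control, then LPS+AS-IV against LPS and against Control). With score-0 tags alone LPS+AS-IV against LPS gave -1.43, and the 26 to 31 nt share by 3.49 in LPS against Control. The 24 to 32 nt share gave 0.617 in LPS+AS-IV against LPS. The share matched to tRNA or rRNA in LPS+AS-IV against Control differed by 4.41 with 16 bases, 4.35 with any parent tag, 2.47 with each tag counted once and 11.3 without rno_piR_001199. On the reverse strand, LPS+AS-IV against LPS gave -0.0488. The cause was not tested.

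Leaving out 1 library at a time gave, for the piRNA share, 0.0614 to 20.6 points in LPS against Control, -17.2 to 3.32 in LPS+AS-IV against LPS and 2.18 to 4.38 in LPS+AS-IV against Control. In LPS+AS-IV against LPS the 26 to 31 nt share ranged from -8.39 to 4.39 and the share starting with T from -3.59 to 2.39. The log2 fold change of rno_piR_001199 ranged from 0.35 to 3.79 in LPS against Control and from -2.38 to 1.07 in LPS+AS-IV against LPS. That of rno_piR_005901 ranged from -0.69 to 2.50, from -2.32 to 0.88 and, in LPS+AS-IV against Control, from -0.040 to 0.38.

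The count of called piRNA names, 0 in each comparison by edgeR, was 4, 7 and 6 with DESeq2 (1.06%, 2.36% and 1.66% of all names) and 5, 2 and 2 with no filter on low counts (0.283%, 0.202% and 0.243% of all, in the same order). With library totals 1 was called in LPS+AS-IV against LPS. With 1 library left out it was 0 to 7, 0 to 2 and 0 to 2. There 74 to 88 piRNA names were tested, against 65 with all libraries, so these counts do not compare directly with the 0. The share of all names called was not counted with library totals or with 1 library left out. The 7 came without LPS 2, 3 came without LPS 1, and 2 came without LPS+AS-IV 1 or, against Control, without Control 3. Library totals moved the median of all names by 0.18 in LPS against Control and 0.11 in LPS+AS-IV against Control.

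Same-numbered libraries did not deviate together in every pair. Their correlations ran from -0.08 to 0.16, and those of differently numbered libraries from -0.17 to 0.14. Reads per name varied widely within groups, so these values cannot decide whether same-numbered libraries share an animal or a batch. A replicate block gave 0 called piRNA names in each comparison. Between samples of 1 group reads per name varied with a square root of common dispersion of 1.53.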
